A study of Mus musculus with 24 samples.

Results

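Tle4-only early regions are stretches of the mouse genome where open chromatin was listed in young corticothalamic projection neurons (Tle4 CThPNs) and in no other neuron and age of the study. They were selected by presence and absence in 12 lists of ATAC-seq peaks. On chromosomes 1 to 19, X and Y, peaks sharing at least 1 bp were joined across lists, which gave 85867 union regions. A union region was a member when at least 2 of the 4 early Tle4 lists (E18.5, P1, P3 and P7) held a peak in it and neither of the 2 late Tle4 lists (P21 and P48) nor any of the 6 Cux2 lists did. This gave 3718 members, 4.33% of all union regions. The reverse rule for Cux2 gave 7987 Cux2-only early regions, used below for comparison, and 2621 shared-early regions were in 2 or more early lists of both classes but in none of the late ones.

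ATAC-seq uses a transposase that cuts open chromatin, so that reads accumulate at accessible sites. The 24 libraries came from tdTomato-positive neurons that were sorted from somatosensory and motor cortex of mice on a mixed C57BL/6J background (C57BL/6 in the labels), from pooled animals of both sexes, with 2 replicates for each class and age. Tle4 CThPNs carried Tle4-2A-CreERT2 and the Ai14 reporter, and Cux2-lineage callosal projection neurons (Cux2 CPNs) carried Cux2-CreERT2 and the same reporter. In both lines recombination was induced before birth by 4-HydroxyTamoxifen given to the pregnant mother at 1 mg per 10 g of body weight, so all ages followed cells labelled at one time. The label marks cells that expressed the driver gene at induction, and the Cux2 line also labels some interneurons. Each deposited list pools the 2 replicates of its group, so replicate errors cannot be given and a list is the smallest unit that can be compared. In such bulk lists, fewer cells with an open site and a weaker opening per cell cannot be told apart.

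Corticothalamic neurons occupy the deepest cortical layer and send axons to the thalamus. Their identity is set after the last division by transcription factors that include TBR1, a T-box factor, and SOX5, an SRY-related factor, while FEZF2 and its partners direct the neighbouring subcerebral neurons of layer 5. Nuclear factor I (NFI) proteins, of which NFIA and NFIB are abundant in deep-layer neurons, bind a palindrome and also single sites such as TTGGCA. These letters are called the NFI arm below, although their last base is outside the fixed letters of the palindrome. Callosal neurons of the upper layers depend instead on CUX1, CUX2 and POU-domain factors. Distal open sites of a neuron class are commonly enhancers, which can act on genes over long distances.

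The sequences below span 100 bp to each side of the summit of some members, with the summit base itself, from NCBIM37 (mm9), plus strand, read 5′ to 3′. Capitals mark an NFI arm (TTGGCA or TGCCAA), a proneural bHLH E-box (CAGATGG or CCATCTG) or a T-box site (GGTGTGA or TCACACC). The first 4 are the windows of members near the genes Tle4, Sox5, Rprm and Thsd7b of the corticothalamic list, chosen to show the gene that defines the line and members with NFI arms beside corticothalamic genes.
Tle4 region, chr19:14490491-14490691: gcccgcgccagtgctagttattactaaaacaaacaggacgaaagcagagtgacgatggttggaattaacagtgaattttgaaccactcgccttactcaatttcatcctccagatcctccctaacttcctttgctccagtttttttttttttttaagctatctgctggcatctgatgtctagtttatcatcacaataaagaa
Sox5 region, chr6:144187825-144188025: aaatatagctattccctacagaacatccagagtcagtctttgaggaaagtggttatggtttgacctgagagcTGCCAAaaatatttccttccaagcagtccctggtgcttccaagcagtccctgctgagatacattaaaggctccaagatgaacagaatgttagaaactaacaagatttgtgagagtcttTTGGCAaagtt
Rprm region, chr2:54015376-54015576: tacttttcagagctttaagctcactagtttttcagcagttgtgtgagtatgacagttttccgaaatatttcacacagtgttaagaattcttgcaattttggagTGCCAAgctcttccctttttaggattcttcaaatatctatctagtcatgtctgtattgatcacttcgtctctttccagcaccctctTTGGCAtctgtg
Thsd7b region, chr1:131417267-131417467: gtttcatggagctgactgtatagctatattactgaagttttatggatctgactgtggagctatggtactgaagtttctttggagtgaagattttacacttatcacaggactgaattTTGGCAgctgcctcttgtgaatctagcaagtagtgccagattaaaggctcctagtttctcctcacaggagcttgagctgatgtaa
Of the 8 leading members, those in all 4 early lists with the highest mean percentile of fold enrichment, 3 are shown because they hold an NFI arm, a T-box site, or a T-box site with a bHLH E-box.
Leading member 2, chr1:41369918-41370118: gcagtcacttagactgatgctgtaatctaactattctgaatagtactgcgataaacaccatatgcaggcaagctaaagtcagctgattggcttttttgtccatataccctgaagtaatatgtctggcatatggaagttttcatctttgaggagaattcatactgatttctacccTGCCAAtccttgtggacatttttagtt
Leading member 4, chr14:11329849-11330049: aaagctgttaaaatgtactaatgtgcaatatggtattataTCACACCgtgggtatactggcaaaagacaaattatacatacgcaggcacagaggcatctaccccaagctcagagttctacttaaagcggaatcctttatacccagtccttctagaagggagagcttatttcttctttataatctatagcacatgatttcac
Leading member 7, chr10:23256269-23256469: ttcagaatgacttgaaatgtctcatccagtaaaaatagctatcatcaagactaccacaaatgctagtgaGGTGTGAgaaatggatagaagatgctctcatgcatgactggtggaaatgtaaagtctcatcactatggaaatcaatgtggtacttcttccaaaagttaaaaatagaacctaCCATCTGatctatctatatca
The last 3 belong to the largest group of members with related sequence, described below.
Family 1 member 1, chr11:21420652-21420852: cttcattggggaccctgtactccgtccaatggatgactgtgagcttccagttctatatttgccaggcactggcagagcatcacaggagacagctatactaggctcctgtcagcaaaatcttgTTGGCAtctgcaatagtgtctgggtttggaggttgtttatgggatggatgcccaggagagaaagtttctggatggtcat
Family 1 member 2, chr5:6981308-6981508: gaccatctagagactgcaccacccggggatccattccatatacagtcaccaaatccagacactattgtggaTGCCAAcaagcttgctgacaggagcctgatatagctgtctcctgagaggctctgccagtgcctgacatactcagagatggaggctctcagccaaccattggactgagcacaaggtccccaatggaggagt
Family 1 member 3, chr10:66306575-66306775: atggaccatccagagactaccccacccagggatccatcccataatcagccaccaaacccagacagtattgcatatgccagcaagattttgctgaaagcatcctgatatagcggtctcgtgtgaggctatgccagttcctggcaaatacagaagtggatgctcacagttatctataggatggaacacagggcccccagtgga

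Most regions seen in young Tle4 CThPNs were also seen in Cux2 CPNs. Of 21203 union regions in at least 2 early Tle4 lists, 17246 (81.3%) were in a Cux2 list and 239 (1.13%) were in a late Tle4 list but in no Cux2 list, which left the 3718 members (17.5%). A Cux2 list held the region at an early age in 16091 cases and only at a late age in 1155. Members made up 2638 of 19557 regions in the E18.5 list, 3099 of 19350 at P1, 3343 of 22384 at P3 and 1606 of 15145 at P7. These were 13.5%, 16.02%, 14.9% and 10.6% of the lists. Thus P7 held the smallest share and P1 the largest.

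Most members were listed at successive ages. In all, 918 members (24.7%) were in all 4 early lists, 1414 (38.0%) in 3 and 1386 (37.3%) in 2. The most frequent pattern was E18.5, P1 and P3 without P7 (1024 members), followed by all 4 ages (918) and by P1 and P3 (510). Of the patterns that skipped an age, E18.5 and P3 without P1 held 288 members, E18.5, P3 and P7 held 59, E18.5 and P7 held 37, P1 and P7 held 26, and E18.5, P1 and P7 held 22. P7 held 43.2% of members, against 67.8% of the 17246 regions that were in at least 2 early Tle4 lists and also in a Cux2 list. The corresponding shares were 71.0% and 81.9% at E18.5, 83.4% and 87.8% at P1, and 89.9% and 95.2% at P3. By the rule members are absent from the Tle4 lists of P21 and P48, while the 17246 regions could be in them. The part of this in the P7 difference was not tested.

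**Figure D1:**
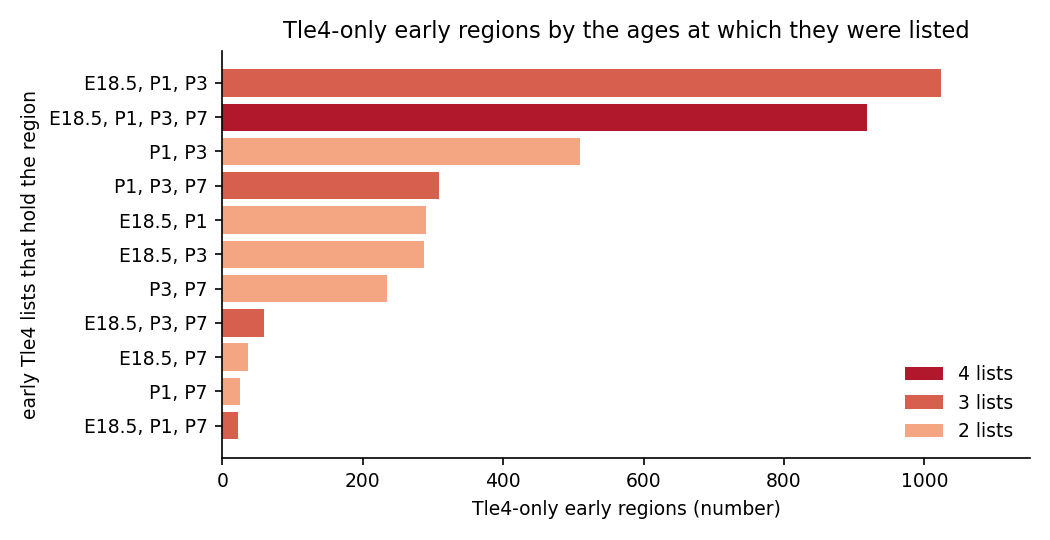
Number of Tle4-only early regions (horizontal axis) for each combination of the early Tle4 lists that held them (vertical axis), coloured by whether 2, 3 or 4 lists did. The 2 longest bars are E18.5, P1 and P3 (1024) and all 4 ages (918), and of the combinations that skip an age E18.5 and P3 holds 288 and each of the others 59 or fewer.

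The members were of moderate strength within their lists. Fold enrichment, the linear ratio of signal over local background that the authors' peak caller gave at the summit, had a median of 9.93 over the members listed at E18.5, 10.1 over those at P1, 9.18 over those at P3 and 9.33 over those at P7. In the same lists the other regions had medians of 10.6, 10.9, 9.85 and 10.5. Ranked within the list, the median member stood at percentile 41.9, 40.2, 40.7 and 34.4. Only 1.55%, 1.03%, 1.79% and 0.685% of members were in the top 10% of their list. Even the 918 members present at all 4 ages had median percentiles of 53.4, 55.3, 52.5 and 34.3, below the 71.6, 71.6, 72.9 and 58.4 of the 9061 regions that were in all 4 early Tle4 lists and also in a Cux2 list. Those 9061 regions, unlike members, could also be in a late Tle4 list. Fold enrichment of different lists is not on a common scale, so ages are compared by rank.

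Strength rose with the number of lists. The median over members of the mean percentile was 33.1 for those in 2 lists, 40.4 for those in 3 and 49.6 for those in 4. The 2769 regions just outside the rule, present in a single early Tle4 list and no other, had a median percentile of 30.3. Their median width was 529 bp against 705 bp for members in 2 lists and 936 bp for members in 4. Width is that of the joined peaks, so each further list can only widen a region, and it is no measure of strength here. No break in percentile separated the regions just outside from those just inside. The absence of a peak is a weaker observation than its presence, since a site below a list's threshold is not listed. The lowest −log10 p was 14.6 to 22.0 in the early Tle4 lists and 11.4 to 13.8 in the early Cux2 lists, so the Cux2 lists reached to weaker peaks. The late Tle4 lists held 6540 and 11840 peaks, against 15189 to 22443 in the early ones, and the part of this difference in the members' absence at late ages was not tested.

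None of the 8 leading members was a promoter. The first of them, chr2:12960215-12961024, was intergenic, 26841 bp from the transcription start site (TSS) of C1ql3, which encodes a secreted synaptic organiser. Its fold enrichment in the 4 early lists, in order of age, was 18.6, 22.0, 16.6 and 16.9. Leading member 2 (chr1:41369604-41370246) lay 507158 bp from the nearest TSS and reached 19.4, 17.9, 16.9 and 17.1. Both therefore kept a high rank at every early age, at percentile 94.6 or above in each list. Leading member 3 (chr4:14650115-14650922) was in an intron of Lrrc69, with fold enrichments of 17.7, 18.7, 17.0 and 14.7. Leading member 4 (chr14:11329705-11330757) was in an intron of Fhit, a nucleotide-cleaving tumour suppressor, with 16.6, 19.8, 15.4 and 16.1. Leading member 5 (chr10:6030552-6031481), in an intron of the kinase scaffold Akap12, had 19.6, 18.3, 13.4 and 15.8. The other three were intergenic. They were leading member 6 at chr12:12670093-12670795, 36050 bp from a TSS, leading member 7 at chr10:23255947-23256864, 186246 bp from the TSS of the transcriptional cofactor Eya4, and leading member 8 at chr16:39337934-39338763, 116365 bp from a TSS. Leading member 7 moved the most in rank, from percentile 82.6 at E18.5 to 98.5 at P1.

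Members lay away from annotated TSSs. The nearest annotated TSS was a median of 40.3 kb away, compared with 24.2 kb for Cux2-only early regions, 10.6 kb for shared-early regions and 19.9 kb for all union regions. By annotation 2189 members (58.9%, 95% Wilson interval 57.3 to 60.5) were intergenic, 1226 (32.97%) intronic and 175 (4.71%) exonic, and 128 (3.44%, 2.90 to 4.08) were promoters, within 1 kb of a TSS. Promoters made up 11.1% of Cux2-only early regions, 33.4% of shared-early regions and 16.6% of all union regions. The intervals cover counting error only. With each list shortened to its 6538 peaks of highest −log10 p, which left 1272 members, 9.98% were promoters. More than 100 kb separated 26.4% of members from any TSS, against 16.1% of all union regions.

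The members were poor in CpG. Their median GC content was 42.3%, against 43.2% in Cux2-only early regions, 46.8% in shared-early regions and 45.2% in all union regions. The median ratio of observed to expected CpG was 0.174, 0.245, 0.305 and 0.231 in the same order. Only 18 members (0.484%) had a GC content above 50% together with a CpG ratio above 0.6, against 10.1% of all union regions and 26.8% of shared-early regions. Members were found on every chromosome except Y, which has 6 union regions, and made up between 2.93% (chromosome 11) and 5.19% (chromosome 14) of the union regions of a chromosome.

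Members often had an accessible neighbour in the other class. The nearest peak of any Cux2 list was a median of 10.2 kb away, 244 members (6.56%) had one within 1 kb, and 1835 (49.4%) had one within 10 kb. Early Cux2 peaks alone were a median of 16.8 kb away, with 3.69% of members within 1 kb and 34.4% within 10 kb. These distances were not taken for all union regions, so they are not shown to be particular to members. For Cux2-only early regions, the nearest Tle4 peak was a median of 23.9 kb away, with 2.53% within 1 kb and 24.0% within 10 kb. The Cux2 lists held more peaks, and the part of list length in this difference was not tested. A late Tle4 peak stood within 10 kb of 9.20% of members.

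The letters under the summits set the members apart from the Cux2-only early regions. An NFI arm (TTGGCA, either strand) was in 1095 members, 29.5% of these windows (28.0 to 30.9), against 14.3% of Cux2-only early windows (13.5 to 15.1), 16.2% of shared-early windows and 16.8% of all union regions. In windows of the same length 2 kb to each side of the summit the share was 9.88% for members and 9.50% for Cux2-only early regions, so the members' summits held 2.98 times the share of their surroundings. Windows with at least 2 arms made up 3.93% of members, 1.00% of Cux2-only early regions and 1.66% of all union regions. The whole NFI palindrome was in 0.0269% of members. Because members were selected by presence in some lists and absence from others, these shares are given as description, without a test.

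The other motifs were less frequent in members than the NFI arm. The T-box letters GGTGTGA, the kind of site that TBR1 binds, were in 3.63% of members (3.08 to 4.28), 1.58% of Cux2-only early regions (1.33 to 1.88), 3.20% of all union regions and 2.70% of the windows 2 kb from the members. The bHLH E-box CAGATGG is bound by proneural factors such as NEUROD and NEUROG proteins. It was in 11.6% of members, 10.8% of Cux2-only early regions and 13.1% of all union regions. The members' share was 3.01 times the 3.85% in their surroundings, and that of Cux2-only early regions was 2.53 times the 4.25% in theirs. The MEF2 motif, of a family active in maturing neurons, was in 1.69% of members and 1.39% of Cux2-only early regions. It was in 1.15% of all union regions and 0.565% of the members' surroundings. CUX letters (ATCGAT) were in 0.834% of members, 0.200% of Cux2-only early regions, 0.347% of all union regions and 0.699% of the members' surroundings.

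Several motifs were rarer at the members' summits than in the sequence around them. The first SOX form (ACAATGG) was in 13 members (0.350%, 0.204 to 0.597), against 3.54% of windows 2 kb away and 2.25% of Cux2-only early regions. The second SOX form (ACAAAGG) was in 0.619% of members, 4.41% of their surroundings and 3.97% of Cux2-only early regions. The E-box CAGGTG, which ZEB repressors bind, was in 2.85% of members and 12.4% of their surroundings, and the nuclear receptor letters TAGGTCA in 0.296% and 2.27%. The homeodomain core TAATTA was in 3.50% of members and 7.30% of their surroundings, whereas in Cux2-only early regions it was above the surroundings, at 11.1% and 6.63%. The forkhead letters GTAAACA followed the same order, with 1.56% and 3.59% for members and 3.64% and 2.92% for Cux2-only early regions. Thus SOX and ZEB letters were below the surrounding level in both sets, while homeodomain and forkhead letters were below it in members and above it in Cux2-only early regions. Being below it was not particular to members. Shared-early regions and their surroundings held homeodomain letters in 4.77% and 6.66% and forkhead letters in 2.10% and 2.73%. The first SOX form was in 0.763% and 2.98% of them and the ZEB E-box in 5.46% and 13.3%. The POU octamer ATGCAAAT, a site of upper-layer POU factors, was in 1.61% of members and 1.79% of their surroundings, while Cux2-only early regions held it in 4.87% and 1.55%. Shared-early regions held the octamer in 2.79% and 1.37%. Over all union regions, the first SOX form was in 1.84%, the second in 3.14%, the ZEB E-box in 7.22% and the nuclear receptor letters in 1.02%. Homeodomain letters were in 5.14% of all union regions, forkhead letters in 2.19% and the POU octamer in 3.02%. Each of these shares was above that of the members.

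CTCF and GC-rich promoter motifs were rarer in the members than in all union regions. CTCF, which marks insulators and loop anchors and is bound alike in most cell types, had its motif in 3 members (0.0807%) and in 4.50% of Cux2-only early regions, 4.08% of shared-early regions and 2.78% of all union regions. It was in 0.88% of members when all lists were held to a −log10 p of at least 21.97, and in 0.187% when the Cux2 list of E18.5 was left out. GC-rich promoter motifs were also rare. The KLF and SP letters GGGCGGG were in 0.834% of members and 17.0% of shared-early regions, the EGR letters GTGGGCG in 0.296% and 5.61%, and the CRE TGACGTCA in 0.188% and 2.10%. The AP-1 letters TGANTCA, an activity-linked motif, were in 5.76% of members, 5.86% of Cux2-only early regions and 13.7% of all union regions. RFX letters (GTTGCCATG) were in 0.565% of members, 1.32% of Cux2-only early regions and 1.11% of all union regions. LEF letters (CTTTGAT) were not rarer in members, at 3.31%, against 2.75% and 2.32%.

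**Figure D2:**
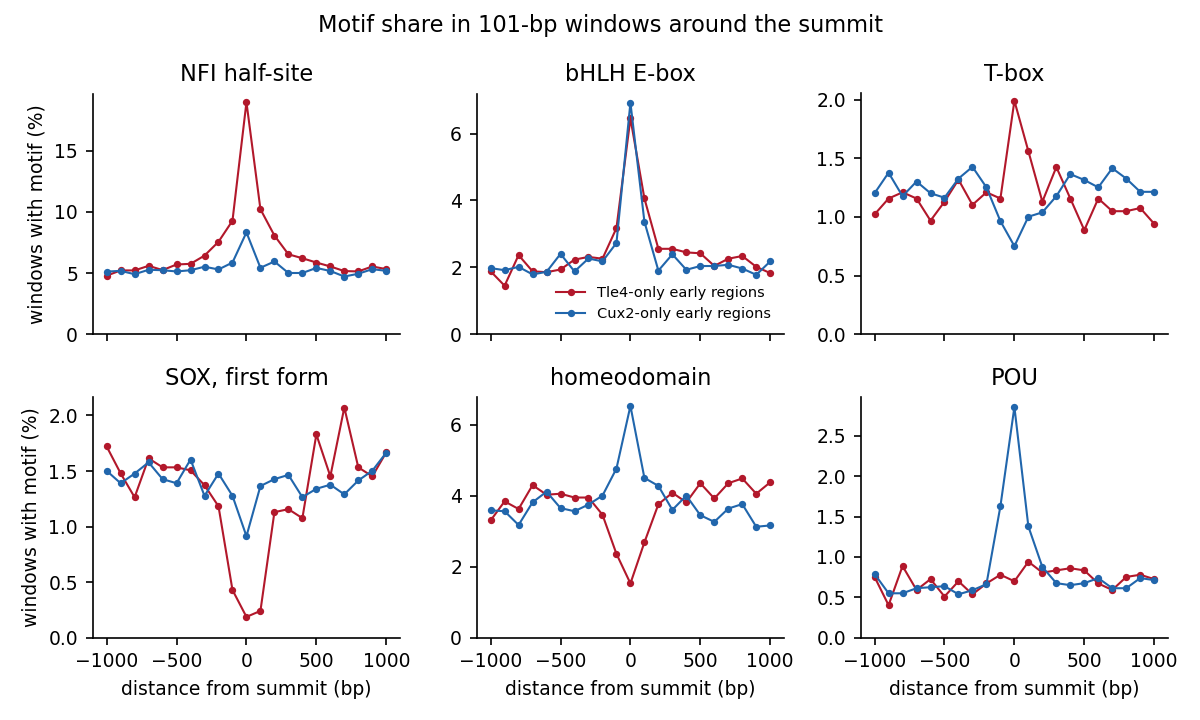
Share of windows of 50 bp to each side (vertical axis, percent) that hold a motif, at steps of 100 bp from 1000 bp before to 1000 bp after the summit (horizontal axis), for Tle4-only early regions (red) and Cux2-only early regions (blue). At the summit the NFI arm (titled NFI half-site) reaches 18.96% in Tle4-only and 8.33% in Cux2-only early regions, and the first SOX form is at 0.188% and 0.914%, below the flanks in both. Homeodomain letters are below the flanks at 1.53% in Tle4-only and above them at 6.54% in Cux2-only early regions, and POU letters are within the flanking range at 0.699% in the former and above it at 2.85% in the latter.

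The NFI, T-box and homeodomain shares were highest in the members listed at E18.5. Members of the 4 early lists, in order of age, held an NFI arm in 31.9%, 29.6%, 28.8% and 28.6% of their windows. The corresponding T-box shares were 3.94%, 3.58%, 3.65% and 3.49%, and those of the homeodomain core 3.72%, 3.42%, 3.29% and 2.80%. The bHLH E-box was in 12.1%, 11.8%, 11.4% and 9.78%, the forkhead letters were in 1.55%, 1.65%, 1.32% and 0.996%, and the RFX letters in 0.569%, 0.549%, 0.598% and 0.249%, each lowest at P7. These lists share members, so the ages are not independent. By pattern, the NFI arm was in 35.2% of the 290 members at E18.5 and P1 alone, 31.4% of the 918 at all ages, 25.1% of the 235 at P3 and P7 alone and 20.4% of the 309 at P1, P3 and P7. Among the 7 patterns with at least 235 members, the 4 that include E18.5 ranged from 29.9% to 35.2% and the other three from 20.4% to 25.1%. Members in 2, 3 and 4 lists held the NFI arm in 28.4%, 29.3% and 31.4%, and the single-list regions just outside the rule in 31.2%.

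A test was possible on regions that the rule left out. Regions present in exactly 1 of the 12 lists are in no 2 lists together, so each early list gives its own value and the 4 early Tle4 lists can be compared with the 4 early Cux2 lists by an exact permutation test over 70 arrangements (two-sided, smallest possible p 0.0286). There were 1161, 362, 743 and 503 such regions in the early Tle4 lists, in order of age, and 6539, 430, 2204 and 3183 in the early Cux2 lists. None of them is a member. The lists pool replicates and the ages of a class follow one labelled population, so the p-values measure the spread between ages. Paired by age, 4 lists of each class cannot give a p below 0.125. The names of the deposited Cux2 lists carry a version mark that the Tle4 lists lack, and a difference in processing between the 2 sets of lists and the difference in class cannot be told apart.

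The NFI arm was in 39.4%, 29.3%, 24.8% and 23.1% of single-list Tle4 regions from the youngest age to the oldest and in 22.2%, 10.9%, 12.0% and 12.2% of single-list Cux2 regions. Each Tle4 value was above each Cux2 value, and in both classes E18.5 was the highest. The means were 29.1% ± 7.32 (SD, 4 lists) and 14.3% ± 5.28, a difference of 14.8 percentage points (exact permutation p = 0.0286, adjusted over 20 motifs p = 0.0952, higher at 4 of 4 ages). The T-box letters were in 2.58%, 2.49%, 2.83% and 3.58% of Tle4 regions and in 2.25%, 1.40%, 1.59% and 1.95% of Cux2 regions. The groups did not overlap, with a difference of 1.07 percentage points (exact permutation p = 0.0286, adjusted p = 0.0952).

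SOX letters were lower in Tle4 regions. The first SOX form was in 0.775%, 0%, 0% and 0.596% of single-list Tle4 regions and in 2.52%, 3.02%, 1.72% and 1.92% of Cux2 regions, a difference of -1.95 percentage points. The 0% at P1 and P3 are 0 of 362 and 0 of 743 windows, for which a count of 0 allows shares of up to 0.83% and 0.404%, both below the lowest Cux2 value. The second SOX form was at 0.804% ± 0.185 (SD, 4 lists) and 3.59% ± 1.18, the ZEB E-box at 4.29% ± 0.83 and 6.93% ± 0.534, and the CTCF motif at 0.777% ± 0.441 and 4.63% ± 2.62. None of these 4 motifs overlapped between the classes (exact permutation p = 0.0286 and adjusted p = 0.0952 for each). In all, 6 of 20 motifs were separated without overlap, 2 higher and 4 lower in Tle4 regions. None of the 20 passed 0.05 after adjustment.

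Both SOX forms kept the sign and the exact p of 0.0286 in all 18 alternative settings. The 18 include the promoter distance of 2 kb, which cannot alter a motif share and so only repeats the main values. The NFI difference kept its sign in all 18 settings and its p in 8, the promoter distance included, with exact permutation p up to 0.114. With lists of equal length (6538 peaks) it was 8.55 percentage points (exact permutation p = 0.114). Leaving out any early Tle4 list or the Cux2 list of P1 or P7 gave 12.6 to 16.7 points with exact permutation p of 0.0571 to 0.0857. The T-box difference lost its p in 5 settings. It was 0.83 points without the Tle4 list of P7 (exact permutation p = 0.0571), 1.18 with lists of equal length and 0.67 at the common −log10 p (exact permutation p = 0.143 and 0.0857), and 0.44 and 0.56 with windows of 50 and 200 bp to each side (exact permutation p = 0.343 and 0.171). The call was also lost for the CTCF difference when any 1 early Tle4 list was left out (exact permutation p = 0.0857, -4.15 to -3.92 points). The ZEB difference shrank to -0.17 and the CTCF difference to -0.90 when all lists were held to a −log10 p of at least 21.97 (exact permutation p = 0.857 and 0.457). With lists of equal length they were -0.37 and -1.67 (exact permutation p = 0.771 and 0.286). When the Cux2 list of E18.5 or P3 was left out the ZEB difference was -2.05 and -2.18 (exact permutation p = 0.0857 and 0.0571). Homeodomain letters were in 8.36%, 3.04%, 2.83% and 2.78% of Tle4 and 12.8%, 5.35%, 9.71% and 6.19% of Cux2 regions, lower in Tle4 at 4 of 4 ages but with overlapping ranges (exact permutation p = 0.0857). The bHLH E-box was in 12.3% ± 2.06 and 10.9% ± 2.51 (SD, 4 lists; exact permutation p = 0.429).

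**Figure D3:**
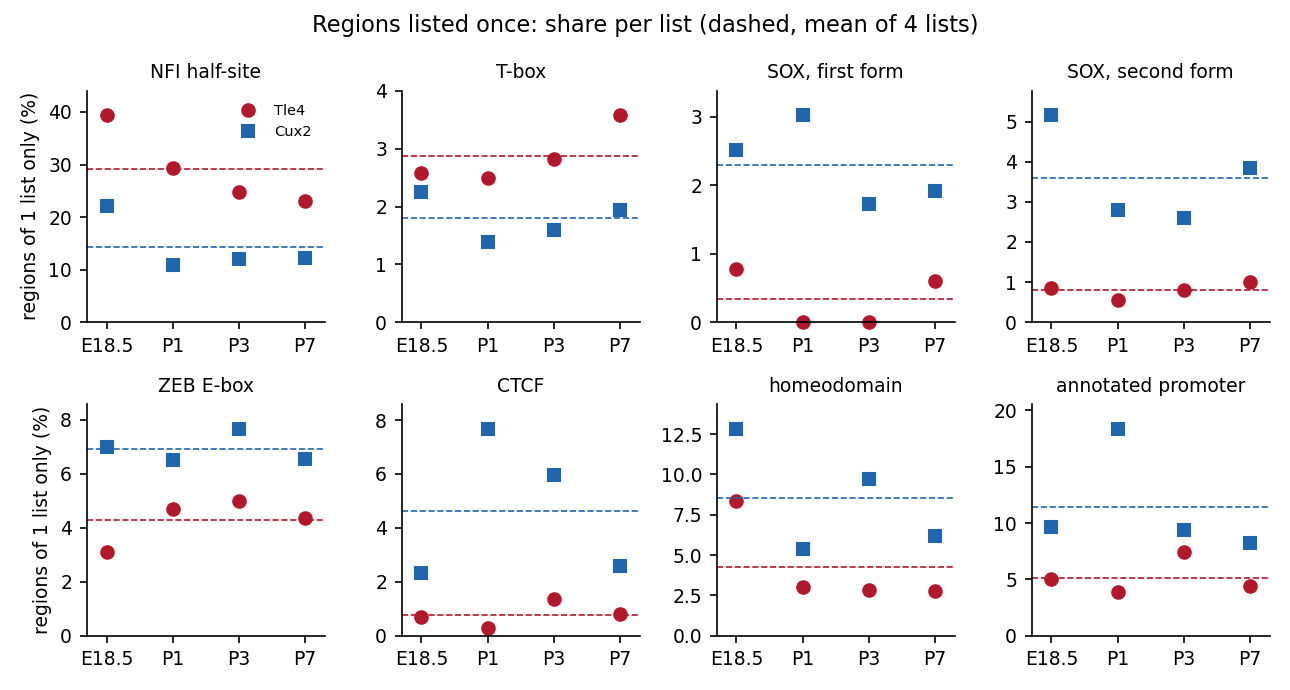
Share of single-list regions (vertical axis, percent) with each motif or at an annotated promoter, for the 4 early ages (horizontal axis) of Tle4 CThPNs (red circles) and Cux2 CPNs (blue squares), with the mean of the 4 lists as a dashed line. The circles and squares occupy separate ranges for the NFI arm, T-box, both SOX forms, the ZEB E-box, CTCF and promoters, and overlap for homeodomain letters, where E18.5 of Tle4 (8.36%) is above 2 of the Cux2 ages.

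Promoters were rarer in single-list Tle4 regions, at 5.00%, 3.87%, 7.40% and 4.37% in order of age, than in single-list Cux2 regions, at 9.64%, 18.4%, 9.35% and 8.20%. The groups did not overlap, with means of 5.16% ± 1.57 (SD, 4 lists) and 11.4% ± 4.70 and a difference of -6.23 percentage points (exact permutation p = 0.0286). The difference was -3.99 points without the Cux2 list of P1 and 0.00773 points when all lists were held to the same −log10 p (exact permutation p = 0.0571 and 1.00). When the Cux2 list of E18.5 or P3 was left out it was -4.79 and -5.72 points (exact permutation p = 0.143 and 0.0857), and without any early Tle4 list between -7.53 and -6.16 points (exact permutation p = 0.0571). Median GC content of single-list regions had means of 42.6% ± 1.03 and 43.8% ± 1.99, a difference of -1.20 points that was within the spread between ages (exact permutation p = 0.371).

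Some members were relatives in sequence. No repeat annotation was in the reference used here, so repeated sequence was measured from the letters. The 16-letter words of a window had a median of 10 or more copies in the genome in 82 members (2.21%, 1.78 to 2.73), against 0.927% of Cux2-only early regions (0.739 to 1.16), 1.02% of all union regions and 16.1% of windows 2 kb from the members. By BLAST, 499 members (13.4%, 12.4 to 14.5) matched another union region, against 8.85% of Cux2-only early regions (8.25 to 9.50) and 10.0% of all union regions. Matches linked 254 members into 37 families, of which 19 were pairs. The largest family had 65 members on 20 chromosomes, of which 46 were intergenic and 14 were in all 4 early lists. An NFI arm was in 27 of these 65 windows, a T-box site in 0 and either SOX form in 0. The family sequences printed above came from chromosomes 11, 5 and 10, all present at P3 and P7, and members 2 and 3 matched member 1 over 199 and 196 aligned positions with 80.4% and 82.1% identity. In the second family 13 of 45 windows held the bHLH E-box.

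The shares were close to those of all members outside the repeated part. Among the 3217 members with no match and no high copy number, the NFI arm was in 29.9%, the T-box in 3.86%, the first SOX form in 0.373% and the second in 0.684%. Shares of high-copy windows among single-list regions were higher in Tle4 (2.15%, 2.49%, 2.42% and 2.98%) than in Cux2 (0.841%, 2.09%, 1.18% and 1.48%), without overlap (exact permutation p = 0.0286). In single-list regions without repeated sequence, the difference was 14.4 points for the NFI arm and 0.93 for the T-box, with overlapping ranges (exact permutation p = 0.0571 for both). Shares with a BLAST match were 14.9% ± 3.58 (SD, 4 lists) and 9.72% ± 1.35, with overlapping ranges (exact permutation p = 0.0571). Leading member 7 matched 22 other union regions and leading member 3 matched 86.

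Genes near members were counted by distance from a TSS to the region. Of 22225 protein-coding genes, 16.8% had at least 1 member within 100 kb of a TSS and 47.7% had at least 1 Cux2-only early region. Most of the 3730 genes with a member had 1 (3016 genes), 556 had 2 and 158 had 3 or more, and 1589 members had no protein-coding TSS within 100 kb. The largest number was at Pde4d, a phosphodiesterase that degrades cyclic AMP, with 7 members among the 77 union regions near its start sites. Pdzd2, a multi-PDZ protein, and Cacnb4, a beta subunit of voltage-gated calcium channels, had 6 each, among 35 and 30 union regions. At 5 members were Etl4, the teneurin Odz4, the GTPase regulator Arhgap15 and Apbb2, a binding partner of the amyloid precursor protein. Frmd4b, Tmem108, Csl, the guanine deaminase Gda and Armc10 had 4. Of these 12 genes Frmd4b had the most members present at all 4 early ages, 3 of 4. Long genes with several start sites can collect more regions, and all 12 genes except Csl, with 1, Apbb2, with 1, and Gda and Armc10, with 2 each, had at least 3 Cux2-only early regions as well.

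Among the 15 gene lists, the corticothalamic list had the largest share of genes near members. Of 22 genes of the list, 15 (68.2%) had a member within 100 kb, against the background of 16.8%, and 14 (63.6%) had a Cux2-only early region, against 47.7%. Of the 293 union regions near these genes, 21 (7.17%) were members, compared with 4.33% of all union regions. This share was not particular to the corticothalamic list. It was 8.05% near the layer 5 subcerebral genes and 7.14% near the cadherins, and lower near the genes of every other list. The corticothalamic genes had a median of 13 union regions within 100 kb, against 9 for all genes. The upper-layer callosal list showed the other order, with 7 of 23 genes (30.4%) near a member and 19 (82.6%) near a Cux2-only early region. Of the 312 union regions near its genes, 9 (2.88%) were members and 36 (11.5%) Cux2-only early, compared with 9.30% of all union regions. Cux1 and Cux2, which mark upper-layer neurons, had 0 members and 6 and 5 Cux2-only early regions. Within 50 kb the numbers were 8 corticothalamic and 4 callosal genes. With lists of equal length, 5 corticothalamic and 4 callosal genes were near a member, and at the common −log10 p 16 and 9. The callosal count was 4 without the Tle4 list of E18.5 and 3 without that of P3. No test was made of gene lists.

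Among other projection neuron genes, 4 of 9 layer 5 subcerebral genes had members, with 3 at Fam84b and 2 at Bcl6. The 2 at Bcl6 also lie within 100 kb of the interneuron gene Sst. In the subplate and layer 6b list 1 of 7 did, but that gene, the orphan nuclear receptor Nr4a2, had 3 members, 2 of them present at all 4 early ages. Members were near 9 of 23 axon guidance ligands and 11 of 30 receptors, but made up only 3.65% and 4.23% of the union regions near these genes, against 4.33% of all union regions. The ligands were the semaphorins Sema3c, Sema5a, Sema5b, Sema6a and Sema6d, Slit2, Slit3, Ntn1 and Ntn4. The receptors included Robo2, Plxna2 and Plxnc1 with 2 members each, the netrin receptor Unc5d, and the Eph receptors Epha4, Epha6, Epha7, Ephb1, Ephb2 and Ephb6. Of 13 cadherins, which mediate adhesion between neurons, 6 had members, with 3 at Cdh13 and 2 each at Cdh4, Cdh10 and Cdh18. These groups were also near Cux2-only early regions in 15 of 23, 19 of 30 and 7 of 13 genes. The mature-neuron list had none, with 0 of its 12 genes near a member although 160 union regions lay near them, and 2 of 13 immature-neuron genes (Gap43 and Crmp1) had 1 each.

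In lists for cells that the sort could have admitted, genes near a member were 4 of 14 interneuron, 2 of 9 astrocyte, 1 of 9 oligodendrocyte, 2 of 7 microglia, 1 of 6 endothelial and 2 of 12 progenitor genes, against the background of 16.8%. Members were 5.71%, 2.08%, 1.09%, 2.70%, 2.13% and 3.06% of the union regions near them. Promoters of the same gene lists that held a peak, called open here, were also counted. No share over all annotated promoters stands beside these counts. The early Tle4 lists were also shorter, with 15189 to 22443 peaks against 21758 to 33998 in the early Cux2 lists. The counts therefore cannot decide how pure the sorted cells were. In the early Tle4 lists 0 promoters of the astrocyte, oligodendrocyte and endothelial lists were open at any age, 1 progenitor promoter was open at E18.5 and at P3, those of 2 microglial genes were open at E18.5 and of 0 at later early ages, and 2 of 14 interneuron promoters were open at each age. In the early Cux2 lists 9, 3, 6 and 3 interneuron promoters, 4, 2, 3 and 2 progenitor promoters and 2 astrocyte promoters at each age were open. At P1 1 oligodendrocyte promoter was open as well. Corticothalamic promoters did not separate the classes, with 7, 7, 8 and 4 of 22 open in Tle4 lists and 11, 6, 6 and 10 in Cux2 lists.

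**Figure D4:**
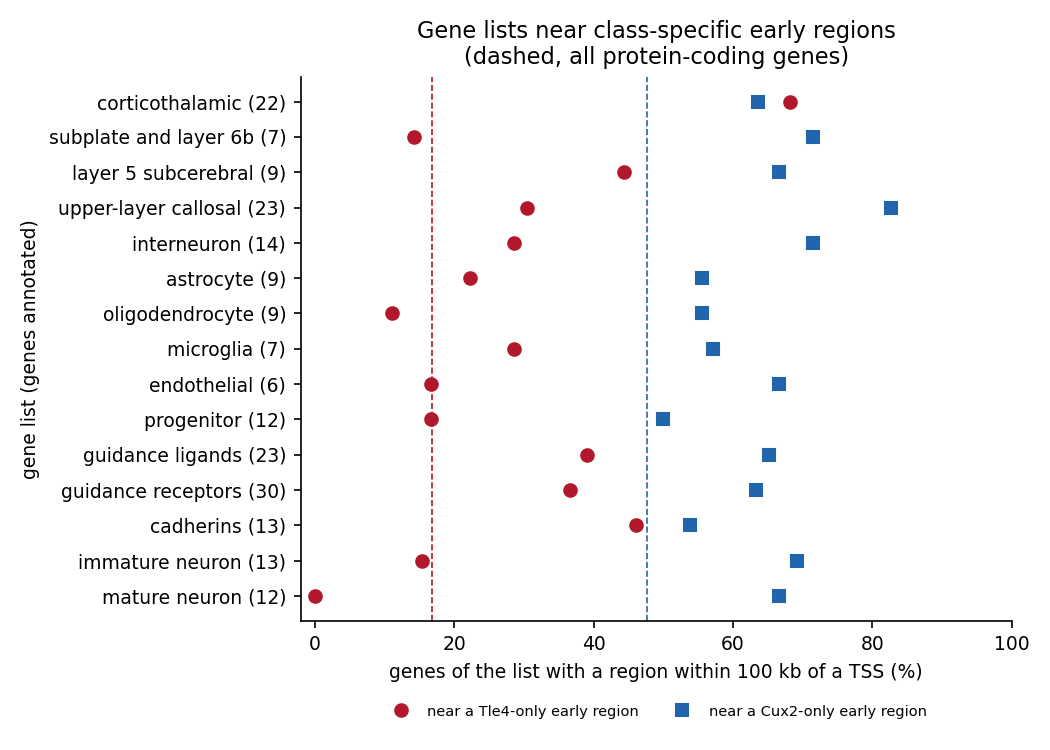
Percentage of the annotated genes of each list (horizontal axis) that have a Tle4-only early region (red circles) or a Cux2-only early region (blue squares) within 100 kb of a TSS, with dashed lines at the shares of all protein-coding genes, 16.8% and 47.7%. The corticothalamic list has the rightmost circle (68.2%), the upper-layer callosal list the rightmost square (82.6%), and the mature-neuron list has its circle at 0%.

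The members near corticothalamic genes were of modest strength, and most were not beside the promoter. At Tle4, the corepressor gene that drives the line, a single member lay 37398 bp from the TSS (chr19:14490171-14490809, intergenic). It was listed at E18.5 and P1 with fold enrichments of 8.12 and 8.68, percentiles 10.7 and 17.0, and held none of the 20 motifs. At Tbr1, which encodes a master regulator of layer 6, the member (chr2:61635958-61636461) lay 4526 bp from the TSS of Tbr1, inside Psmd14, and is annotated as a promoter only because it overlaps a 5S ribosomal RNA gene. Its fold enrichment was 7.63, 7.59 and 5.81 at E18.5, P1 and P3, all at or below percentile 6.12. Both regions thus ranked low in their lists.

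Sox5, needed for layer 6 identity, had 2 members. The higher-ranked (chr6:144187447-144188325, intronic, 29359 bp from a TSS) was listed at P3 and P7 with fold enrichments of 11.3 and 9.85, and its window holds 2 NFI arms. The other (chr6:144255995-144257365) was present at all 4 ages and also holds an NFI arm. Fezf2, the layer 5 determinant that is expressed in layer 6 at early ages, had 2 intergenic members 20526 and 13744 bp from a TSS. The farther one (chr14:13157152-13157853) was in all 4 lists with 10.1, 10.7, 6.71 and 6.09, and its percentile went from 44.98 and 49.0 at E18.5 and P1 to 7.90 and 2.65 at P3 and P7.

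The NFI genes themselves were near members. Nfia had 4, the most of the list, all intronic, and the highest-ranked (chr4:97477053-97477779) had fold enrichments of 9.57, 8.65 and 6.36 at E18.5, P1 and P7. Nfib had 1 (chr4:82218770-82219665, intronic), present at all 4 ages with 12.8, 11.3, 9.01 and 6.72. Its percentile was 72.9 at E18.5, 57.2 at P1, 37.9 at P3 and 5.46 at P7, so it stood lower in each later list. Zfpm2, which encodes a GATA cofactor, likewise had a member in all 4 lists (chr15:40670121-40671216, intronic), at percentiles 63.4, 22.7, 17.7 and 11.1. These 3 regions differ in course from the member at Thsd7b, a thrombospondin-repeat gene (chr1:131417072-131417865, intronic), whose percentiles were 14.3, 39.0, 72.6 and 30.6.

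Single members stood near the other genes of the list except Nfe2l3. Rprm, a cell-cycle inhibitor gene used as a layer 6 marker, had a member 77226 bp away (chr2:54015189-54015737) at percentiles 52.9, 55.3 and 53.1 at E18.5, P3 and P7, with 2 NFI arms. Hs3st4, a heparan sulfate sulfotransferase gene, had one 50378 bp away (chr7:131075338-131076005) at percentiles 37.8 and 66.0 at P1 and P3. Members near Ntsr1, the neurotensin receptor gene, Crym, a thyroid hormone binding protein gene, and the kainate receptor gene Grik3 were likewise listed only at P1 and P3. The one near Foxp1 was 97497 bp from its TSS and inside Eif4e3, and that near Crym was inside Abca14, so the assignment to these genes rests on distance alone. Nfe2l3 had 2 members, 1 of them 1050 bp from its TSS. Foxp2, Bcl11b, Syt6, Ppp1r1b, Tox, Crim1 and Garnl3 had none.

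**Figure D5:**
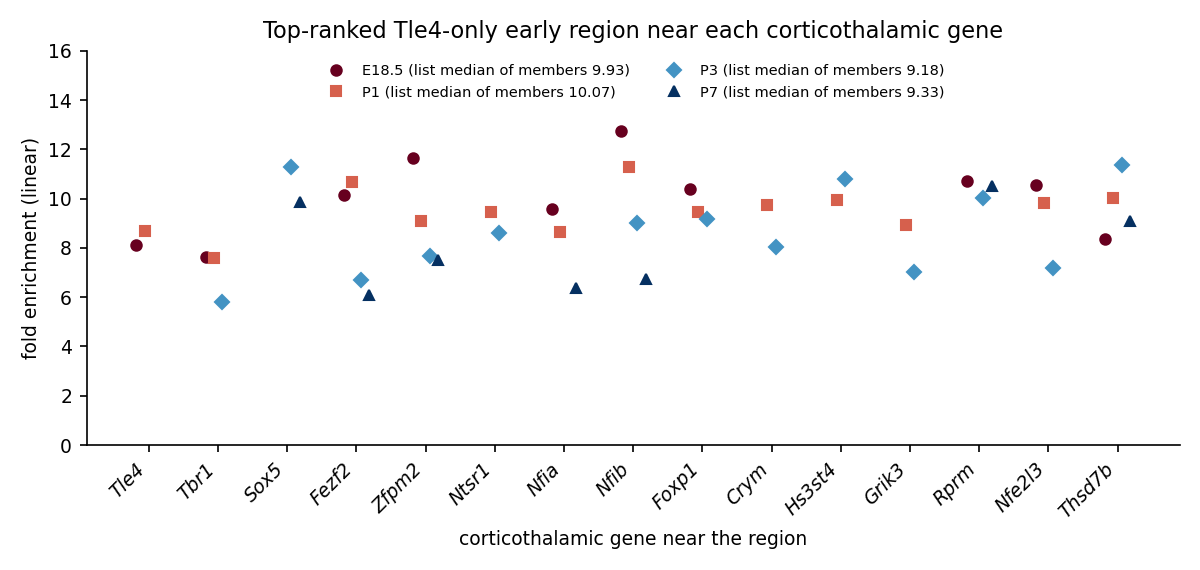
Linear fold enrichment (vertical axis) of the highest-ranked Tle4-only early region within 100 kb of each corticothalamic gene (horizontal axis) in each early Tle4 list that held it, with 1 symbol per age. Values lie between 5.81 and 12.8, on both sides of the medians of all members in the lists (9.93, 10.1, 9.18 and 9.33). At P7 the Fezf2, Nfia, Nfib and Zfpm2 values (6.09, 6.36, 6.72 and 7.50) are below the members' lower quartile of 8.01. The Sox5, Rprm and Thsd7b values at P7 are above it, at 9.85, 10.5 and 9.11. The Nfib, Zfpm2 and Fezf2 regions are lower at P3 and P7 than at E18.5.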

How the data were processed

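Open chromatin was measured by ATAC-seq in 24 libraries. According to the methods of the study, reads were mapped to NCBI37 (mm9) by Bowtie2 with its defaults, duplicates were removed by Picard, and MACS2 peaks were filtered on the irreproducible discovery rate of the replicates. Whether read ends were shifted for the transposase is not given in the sources used here. The submitters' processing notes name the same tools. The deposited files are 12 peak lists with, per peak, the fold enrichment as a ratio, the −log10 p and the summit offset as the authors' peak caller wrote them. The study's methods give 1 approximate read depth for all libraries, and since the lists hold no read counts the depth of each library was not computed. Intervals on shares of regions are 95% Wilson intervals that cover counting error only, and a count of 0 was taken to allow 3.

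From these, 292934 of 292994 peaks, those on chromosomes 1 to 19, X and Y, were merged, and regions were annotated and sequences read from NCBIM37 with GENCODE vM1 (86842 TSS positions), the files' build. A promoter lay within 1 kb of a TSS. For each region, the summit of the peak with the highest percentile of fold enrichment, with 100 bp to each side, was searched on both strands for 20 motifs. The motifs named in words alone are MEF2, CTCF and the NFI palindrome. Overlaps, such as an NFI arm that falls on the palindrome and CAGGTG with GGTGTGA, were not removed. Calculations used Python 3.11.15, numpy 2.4.6, pandas 2.3.3, scipy 1.17.1 and BLAST 2.17.0 (E value up to 0.001), and were tested on simulated data. Named genes were the 12 with most members within 100 kb, and in each gene list those with most members. Named regions were the 8 members with the highest mean percentile among those in all 4 early lists, and the highest-ranked member near each corticothalamic gene. Where several genes share a name the longest protein-coding one was used, and Draxin and Map1b were not matched. The members, gene lists and motifs were chosen with earlier results of these data known. Early Tle4 and early Cux2 lists were compared by exact two-sided permutation tests with Benjamini-Hochberg adjustment over the motifs. Alternatives were equal list length, a common −log10 p, peaks reduced to their summit windows, other windows and distances, and each list left out. The planned share of repeats was replaced by word copies and BLAST matches, because the reference carries no repeat marks. This, the pairing by age, the summit by −log10 p and the windows 2 kb away were chosen after seeing the data.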

Additional observations from a re-analysis of the deposited data

Results flagged for a closer look

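The values below, 7 in all, stood apart from the other 3 lists of their group: the gap to the nearest other value exceeded Dixon's 95% critical share of the range. Chance flags about 1 in 20 groups, 2.35 of the 47 groups examined. In single-list Tle4 regions the homeodomain share was 8.36% at E18.5 and the KLF and SP share was 3.36% at P3, each above the other ages. In single-list Cux2 regions the NFI arm share was 22.2% and the NFI palindrome share 0.0306% at E18.5, the promoter share 18.4% and the EGR share 3.26% at P1, and the RFX share 2.89% at P7. The palindrome share rests on 2 windows. Its counts of 0 at P1, P3 and P7 allow shares of up to 0.698%, 0.136% and 0.0942%, so that flag shows no difference between ages.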

How the results depend on the processing

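No paired analysis was possible because each deposited list pools the replicates that share the labels' replicate numbers. With lists paired by age, an alternative added after seeing the data, the smallest p that 4 pairs allow is 0.125, which the promoter difference of -6.23 points reached, and 0 of 20 motifs were at or under 0.05 in that exact permutation test. The number of members was 1272 with lists cut to equal length, 2332 when 3 early Tle4 lists were required and 918 when all 4 were, and it ranged from 2701 to 4281 when 1 list was left out. The promoter share of members was 9.98% at equal length, 6.83% at the common −log10 p, and 5.92% with promoters within 2 kb. The promoter difference of single-list regions was -6.28 percentage points at equal length (exact permutation p = 0.457) and reversed to 0.00773 at the common −log10 p (exact permutation p = 1.00). It ranged from -7.53 to -3.99 with 1 list left out, and 2 motifs in place of 6 reached the smallest p at the common −log10 p. The differences in motif share that changed sign were all outside the test's threshold in the main analysis. They were, in percentage points, AP-1 (-0.22 at equal length and -0.79 at the common −log10 p), CRE (0.81 and 0.10), LEF (0.26 at the common −log10 p), RFX (0.20 without Cux2 P7, in a range from -0.58 with 1 list left out) and the NFI palindrome (from -0.0108 to 0.0251 with 1 list left out, with 0.0153 without Tle4 P3, and 0.0610 with 200 bp to each side). The cause of these changes was not tested. The GC difference kept its sign and its side of the threshold under all alternatives run, between -2.46 and -0.048 points. The repeat share was not run. The lists' ends limit all counts, since a region absent from a list may be open below its threshold.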
